A study of Mus musculus with 8 samples.

Results

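The genes described here are 9 genes of glutamine and proline metabolism and of amino acid transport, out of 41591 genes with a row in the count tables: Glul, Glud1, Aldh4a1, Slc38a1, Slc38a2, Slc38a3, Slc7a5, Slc3a2 and Slc1a5. They were chosen by name from counts of the same comparison that is described below, because Glul was low and Aldh4a1 was high in the knockout ovaries. The other 7 genes are glutamate dehydrogenase and carriers of glutamine and other neutral amino acids. The difference between groups in these 9 genes is therefore given as a description, with its standard error. Where it is said which of them passed a test over all genes, nothing is read from that.

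RNA was sequenced from whole ovaries in 8 samples from C57BL/6 female mice aged about 3 weeks, 4 labelled Control and 4 labelled DKO. The Control mice were littermates with a wild-type label that also gives them as carrying Pgr-Cre, a Cre recombinase under the promoter of the progesterone receptor gene. The DKO mice carried a conditional double knockout of Insr, which encodes the insulin receptor, and Igf1r, which encodes the type of receptor that binds insulin-like growth factors. The labels name Pgr-Cre for the Control mice only and say nothing of the driver in DKO. Every mouse in both groups was superovulated with 4 IU of eCG, which makes follicles grow, and 48 h later with 5 IU of hCG, which acts in place of the ovulatory hormone surge. Ovaries were removed 12 h after hCG. A whole ovary also contains cells that do not express Pgr, among them vessel, blood and immune cells. In bulk tissue, fewer cells of a type and less RNA per cell cannot be told apart.

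Some libraries stood apart from the others of their group. The first principal component (38.3% of variance) set Control 1, DKO 1 and DKO 2 apart from the other 5 libraries, which carry the highest numbers in their sample titles, and the labels do not say what those numbers are. In DKO 1 and DKO 2 the ribosomal RNA gene Rn18s-rs5 took 2.45% and 2.32% of counts, and the haemoglobin gene Hbb-bs was at 0.609 and 1.06 CPM (counts scaled to the effective size of each library) against 105 to 442 CPM in the other 6. Hbb-bt was likewise low in these 2 libraries, at 0.178 and 0.0883 CPM against 22.1 to 85.95 in the others, while Hba-a1 was at 103 and 248 CPM there and at 73.6 to 171 in the others. The 6 oocyte markers summed to 107, 113 and 135 CPM in Control 1, DKO 1 and DKO 2 and to 238 to 399 CPM in the other 5. Control 1 and DKO 2 also held markers of the oviduct, at 1193 and 764 CPM over 4 genes against 3.77 to 28.2 in the other 6. Values without these libraries stand at the end, and the part of these differences between libraries in the results was not tested.

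Glutamine synthetase, encoded by Glul, joins ammonia to glutamate to make glutamine. Glutamate dehydrogenase, encoded by Glud1, turns glutamate into a citric acid cycle intermediate, and the mitochondrial enzyme encoded by Aldh4a1 makes glutamate in the last step of proline breakdown. Glutamine enters cells through sodium-coupled carriers such as those of Slc38a1, Slc38a2 and Slc38a3 and through the exchanger of Slc1a5. The light chain encoded by Slc7a5 pairs with the heavy chain encoded by Slc3a2 to import leucine and other large neutral amino acids. In the follicle, granulosa and cumulus cells pass amino acids to the oocyte through gap junctions, and Slc38a3 is one of the carriers known from cumulus cells.

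The sequences shown are the stretches just upstream of Glul, Glud1 and Aldh4a1, because these are the 3 genes of the 9 whose Control and DKO libraries did not overlap. They come from the RefSeq promoter table of assembly GRCm38.p6, which matched 5 of the 9 genes, the other 2 being Slc38a2 and Slc3a2. Slc38a1, Slc38a3, Slc7a5 and Slc1a5 are named only. All 3 stretches are on the plus strand, read 5′ to 3′ and end at the base before the gene start in the count tables' annotation. Capitals mark every CCAAT (or ATTGG, the same motif on the other strand) and every AGGTCA, a motif bound by nuclear receptors, searched on both strands. The positions are chr1:153899679-153899928 for Glul, chr14:34310477-34310726 for Glud1 and chr4:139622644-139622870 for Aldh4a1.
Glul: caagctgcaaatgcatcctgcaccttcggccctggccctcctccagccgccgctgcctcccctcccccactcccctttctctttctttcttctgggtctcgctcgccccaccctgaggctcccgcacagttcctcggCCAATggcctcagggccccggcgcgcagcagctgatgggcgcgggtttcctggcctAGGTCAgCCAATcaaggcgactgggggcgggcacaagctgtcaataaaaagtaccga
Glud1: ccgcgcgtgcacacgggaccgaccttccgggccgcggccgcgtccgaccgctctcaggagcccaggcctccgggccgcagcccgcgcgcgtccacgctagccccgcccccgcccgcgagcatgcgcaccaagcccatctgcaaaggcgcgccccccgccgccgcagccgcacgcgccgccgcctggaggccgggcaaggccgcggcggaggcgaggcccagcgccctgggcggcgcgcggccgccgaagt
Aldh4a1: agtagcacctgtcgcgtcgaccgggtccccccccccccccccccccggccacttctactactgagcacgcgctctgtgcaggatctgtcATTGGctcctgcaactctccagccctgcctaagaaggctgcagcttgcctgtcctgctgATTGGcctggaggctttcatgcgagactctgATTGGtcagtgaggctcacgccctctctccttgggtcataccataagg

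The Glul stretch held 2 CCAAT motifs and 1 AGGTCA, which stands 1 base before the second CCAAT. The Aldh4a1 stretch held 3 CCAAT motifs, all written as ATTGG, and no AGGTCA. The Glud1 stretch held neither motif and had a GC content of 82%, against 64.8% for Glul and 61.7% for Aldh4a1. The median was 52.4% over the RefSeq windows of 250 bases, which do not cover every gene. The Aldh4a1 stretch has 227 bases and those of Glul and Glud1 have 250. Of 32851 RefSeq windows of 250 bases before a gene start, 33.8% held a CCAAT, 10.1% held 2 or more and 2.8% held 3 or more, and 14% held an AGGTCA. In the 5 matched genes the same search found no TGTTTAC (a FOXO motif, in 3.2% of all windows), no TGATGNAA (an amino acid response element, in 3.5%) and no TGACGTCA (a cAMP response element, in 1.5%). These motifs do not contain one another. A match is a description of letters, and no match says only that these letters are not in the window.

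Among the enzymes, glutamine synthetase and glutamate dehydrogenase transcripts were lower in DKO ovaries and the proline-breakdown enzyme Aldh4a1 was higher. Of the 9 genes, 3 had groups that did not overlap, against 9.24% of the 16870 genes tested. Aldh4a1 was the 1 gene higher (background 5.70%), and Glul and Glud1 were the 2 lower (background 3.54%). At an adjusted p of 0.05, 2 of the 9 passed the edgeR quasi-likelihood test, against 1.26% of all tested genes. These are Glul and Aldh4a1, the pair whose values led to the choice of the genes, so nothing is read from these counts. Over the 9 genes, 4 log2 fold changes were above 0 and 5 were below, with a median of -0.15 beside -0.021 for all tested genes. All 9 passed the filter on low counts, with 1026 to 52892 counts per gene and library.

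Glul (gene ID 14645) spans 153899929 to 153909723 of chromosome 1 in GRCm38.p5 and was the most abundant of the 9. Its levels in CPM were 855.4, 1096, 1454 and 1225 in Control 1 to 4 and 488.8, 652.8, 522.2 and 634.9 in DKO 1 to 4. Every DKO library lay below every Control library, with a gap of 203 CPM between the highest DKO library and the lowest Control library. The mean was 1158 ± 250.2 CPM in Control and 574.7 ± 81.3 in DKO (SD, n = 4 each), and the log2 fold change was -1.01 ± 0.17 (SE). Control 1 was the lowest of its group and Control 3 the highest, and the spread among Control libraries (coefficient of variation 21.6%) was wider than in DKO (14.2%).

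Glud1 (gene ID 14661, chromosome 14, 34310727 to 34345033) stood at 270.8, 298.6, 437.6 and 284.9 CPM in Control 1 to 4 and at 196.6, 198.4, 215.2 and 216.4 CPM in DKO 1 to 4. The groups did not overlap, and the 4 DKO libraries lay close together while Control 3 stood above the rest of its group. The mean was 323 ± 77.2 CPM in Control and 206.7 ± 10.6 in DKO (SD, n = 4 each), with a log2 fold change of -0.64 ± 0.15 (SE). The coefficient of variation was 23.9% in Control and 5.12% in DKO. Without Control 3 the Control mean was 284.8 CPM and the log2 fold change was -0.46, so the difference was smaller with that library left out. As the groups did not overlap, its direction could hardly have changed.

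Aldh4a1 (gene ID 212647, chromosome 4, 139622871 to 139649691) was at 36.0, 34.3, 33.8 and 31.3 CPM in Control 1 to 4 and at 60.6, 67.0, 76.1 and 64.3 CPM in DKO 1 to 4. Each DKO library was above each Control library, by at least 24.6 CPM, and the Control libraries were within 5 CPM of each other. The mean was 33.8 ± 1.93 CPM in Control and 67.0 ± 6.60 in DKO (SD, n = 4 each), a log2 fold change of 0.98 ± 0.10 (SE), which is 1.98-fold.

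**Figure D1:**
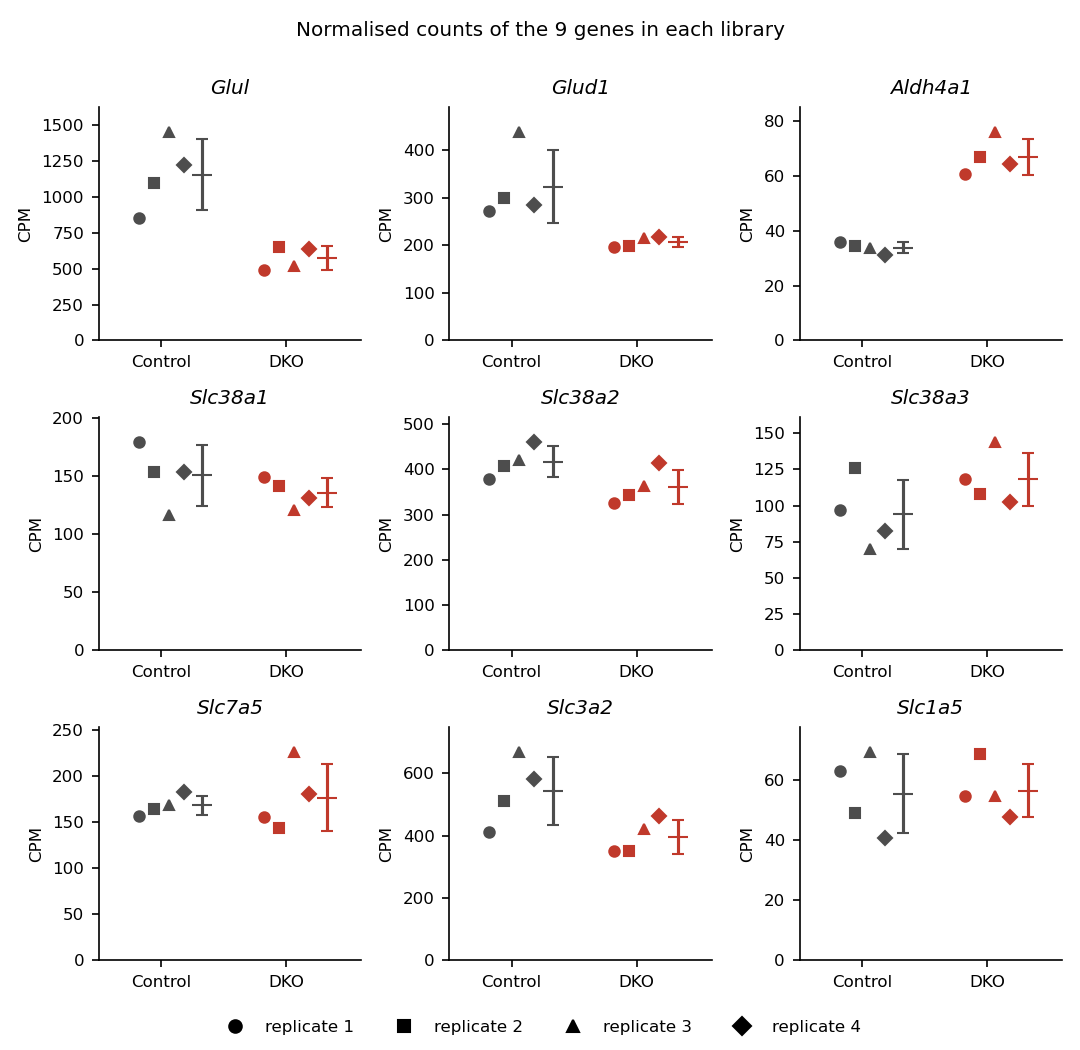
CPM of each of the 9 genes (vertical axes, from 0) in the 4 Control and 4 DKO libraries, with the marker showing the replicate and the bar beside each group its mean ± SD. The groups are apart in Glul, Glud1 and Aldh4a1 and overlap in the 6 carrier genes, and Control 3 stands at 437.6 CPM in Glud1.

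Among the sodium-coupled glutamine carriers, no gene had groups that were apart. Slc38a1 (gene ID 105727, chromosome 15, 96571418 to 96642913) was at 179.6, 154.1, 116.3 and 153.7 CPM in Control 1 to 4 and at 149.6, 142.1, 120.7 and 131.4 CPM in DKO 1 to 4. Control 3 was below all DKO libraries and Control 1 was above all of them, so the groups overlapped. The log2 fold change was -0.15 ± 0.14 (SE). The annotation places Gm32457 inside Slc38a1 on the same strand, with 104 counts over the 8 libraries.

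Slc38a2 (gene ID 67760, chromosome 15, 96687392 to 96699724), the carrier gene that amino acid shortage is known to induce, lies on the same chromosome. It was at 379.1, 407.3, 421.4 and 460.6 CPM in Control 1 to 4 and at 324.9, 342.4, 362.8 and 414.0 CPM in DKO 1 to 4. DKO 4 reached above the 2 lowest Control libraries, and the other 3 DKO libraries were below all of Control. The log2 fold change was -0.21 ± 0.11 (SE).

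Slc38a3 (gene ID 76257, chromosome 9, 107651154 to 107668968) was at 97.1, 126.1, 70.4 and 82.3 CPM in Control 1 to 4 and at 118.5, 108.4, 144.0 and 102.4 CPM in DKO 1 to 4. Its DKO libraries were above 3 of the 4 Control libraries, and Control 2 lay among them. The log2 fold change was 0.33 ± 0.18 (SE), the only one of the 3 Slc38 genes above 0.

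Of the exchanger genes, Slc7a5 and Slc1a5 had nearly the same mean in both groups and Slc3a2 had a lower mean in DKO. Slc7a5 (gene ID 20539, chromosome 8, 121881146 to 121907686) was at 157.2, 164.5, 169.4 and 182.7 CPM in Control 1 to 4 and at 156.1, 143.5, 226.6 and 181.3 CPM in DKO 1 to 4. DKO 3 was the highest of the 8 libraries and DKO 2 the lowest, and the log2 fold change was 0.070 ± 0.14 (SE). It was below 0 without DKO 3 (-0.062).

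The heavy chain gene Slc3a2 (gene ID 17254, chromosome 19, 8706882 to 8723369) was at 412.2, 510.9, 668.0 and 581.4 CPM in Control 1 to 4 and at 351.8, 352.1, 420.9 and 461.6 CPM in DKO 1 to 4. Only Control 1 fell within the DKO range, and the other 3 Control libraries were above all of DKO. The mean was 543 ± 108 CPM in Control and 397 ± 54.2 in DKO (SD, n = 4 each), and the log2 fold change was -0.45 ± 0.16 (SE).

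Slc1a5 (gene ID 20514, chromosome 7, 16781345 to 16798274) was at 63.1, 48.9, 69.4 and 40.8 CPM in Control 1 to 4 and at 54.9, 68.5, 54.8 and 47.7 CPM in DKO 1 to 4. Both the highest and the lowest library were Control libraries, and the log2 fold change was 0.024 ± 0.18 (SE). Its sign changed with the samples and the fit, from -0.099 to 0.16 over 22 alternative analyses.

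**Figure D2:**
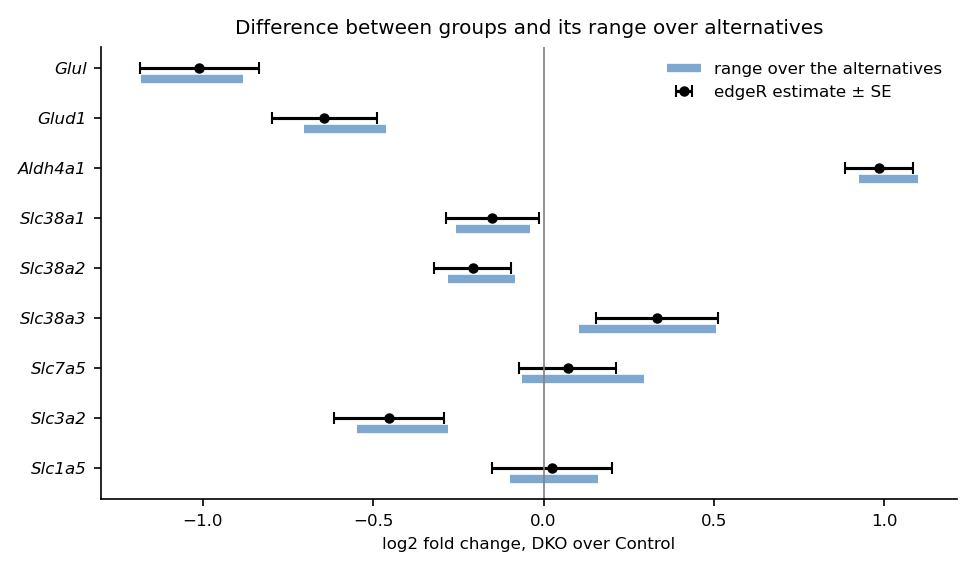
Log2 fold change of each gene, DKO over Control (horizontal axis), as the edgeR estimate with its SE (black) and as the range over the 22 alternative analyses (blue). Glul, Glud1 and Slc3a2 lie below 0 and Aldh4a1 above 0 over the whole range, while the ranges of Slc7a5 and Slc1a5 cross 0.

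Over those 22 alternatives the log2 fold change ran from -1.18 to -0.88 for Glul, from -0.70 to -0.46 for Glud1, from 0.93 to 1.10 for Aldh4a1 and from -0.55 to -0.28 for Slc3a2. Aldh4a1 passed the adjusted p in 21 of the 22, Glul in 14 and Glud1 in 4. With 1 library left out at a time, Aldh4a1 passed in 7 of 8 fits and Glul in 2 of 8. Glul passed without Control 1 and without Control 3, and neither gene passed without Control 2 (nothing is read from these counts). The other 6 genes passed in none of the 22.

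Compared per length of exon, Glul was by far the most abundant transcript of the 9 in Control, at 412 ± 89.1 CPM per kb (SD, n = 4). Glud1 followed at 102 ± 24.5 CPM per kb, Slc3a2 at 90.1 and Slc38a2 at 89.6, then Slc7a5 at 48.0, Slc38a3 at 30.3, Slc1a5 at 19.6, Slc38a1 at 17.7 and Aldh4a1 at 9.12. The ranges of Control libraries of Glud1 and Slc3a2, Slc3a2 and Slc38a2, Slc38a3 and Slc1a5, and Slc1a5 and Slc38a1 overlapped, so these neighbours did not differ beyond their spread. Glul and Glud1, Slc38a2 and Slc7a5, Slc7a5 and Slc38a3, and Slc38a1 and Aldh4a1 did not overlap in Control. In DKO, Glul was still first at 205 CPM per kb, and Slc38a2 at 77.6, Slc3a2 at 65.8 and Glud1 at 65.4 came next. The DKO ranges of Slc38a2 and Slc3a2 overlapped, as did those of Slc3a2 and Glud1. The mean of Aldh4a1 was 18.0 in DKO and that of Slc38a1, the last, was 15.9. Their DKO ranges overlapped (16.3 to 20.5 and 14.1 to 17.5), so they did not differ beyond their spread there.

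**Figure D3:**
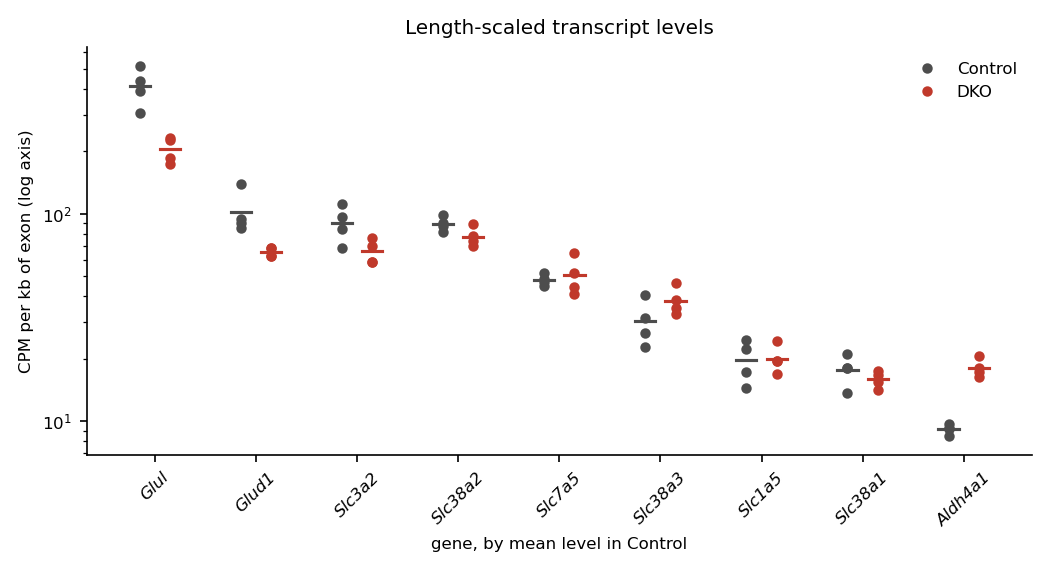
CPM per kb of exon (vertical log axis) of the 9 genes in order of their mean in Control, with a point per library and a line at each group mean. Glul is above all others in both groups, and the mean of Aldh4a1 is 9.12 in Control and 18.0 in DKO, where its range overlaps that of Slc38a1.

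Partner genes were also set side by side within a library. The ratio of the heavy chain gene Slc3a2 to the light chain gene Slc7a5, both per kb, was 1.53, 1.81, 2.30 and 1.85 in Control 1 to 4 and 1.31, 1.43, 1.08 and 1.48 in DKO 1 to 4. The groups did not overlap, though Control 1 and DKO 4 were close. Slc3a2 also pairs with other light chains, so the ratio is no count of complexes.

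The 9 genes also varied among libraries of the same group. In Control 3, Glul, Glud1, Slc3a2 and Slc1a5 had their highest Control value and Slc38a1 and Slc38a3 their lowest, while Control 1 had the lowest Glul, Glud1 and Slc3a2 and the highest Slc38a1. Deviations of log2 CPM from the group means were compared between genes over the 8 libraries, as a description and with no test, in 36 pairs. Glud1 and Slc38a1 went in opposite directions (Pearson r = -0.93, Spearman rho = -0.76), and r was -0.73 without Control 1 and Control 3, the libraries farthest from the Glud1 median. Slc38a2 and Slc3a2 went together (r = 0.79, rho = 0.90), with r = 0.87 without Control 4 and DKO 4. Glul and Slc3a2 had r = 0.77 and rho = 0.74, but r = 0.32 without Control 1 and Control 3, the libraries farthest from the Glul median. Glul and Glud1 had r = 0.68 and rho = 0.67, but r = -0.035 without the same libraries. Leaving these out narrows the range of Glul, which can lower r by itself, so how far the likeness depends on them is not settled. In the 5 libraries with the highest title numbers the r of these 4 pairs was -0.96, 0.40, 0.96 and 0.73 in the same order, so that of Slc38a2 and Slc3a2 was lower there. Slc38a1 and Slc3a2 also went in opposite directions over the 8 libraries (r = -0.88, rho = -0.93). Their r was -0.68 without Control 1 and Control 3 and -0.72 in those 5 libraries. All points share libraries, sequencing depth and tissue composition.

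**Figure D4:**
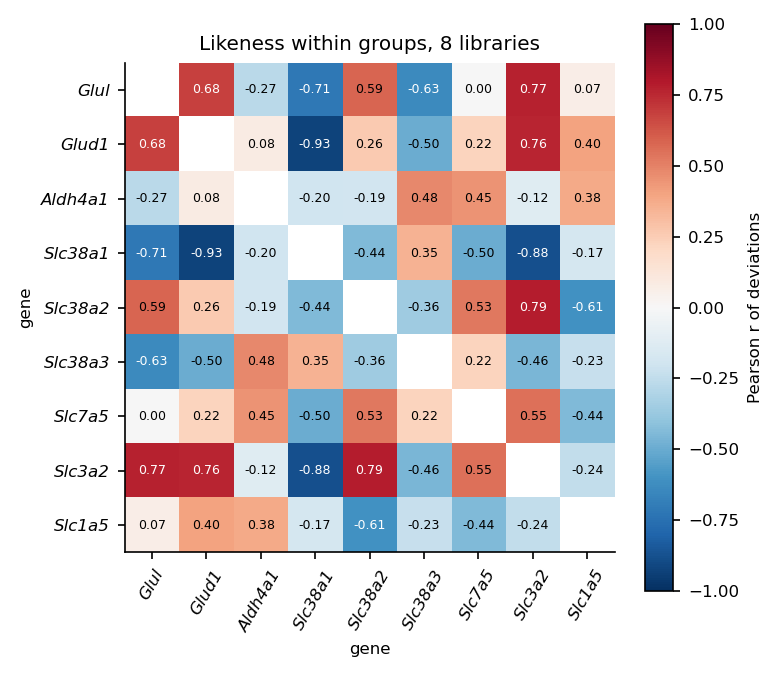
Pearson r of the deviations of log2 CPM from group means for each pair of the 9 genes over 8 libraries, in colour from -1 to 1 and as printed values. The lowest value is -0.93 for Glud1 and Slc38a1, and the highest is 0.79 for Slc38a2 and Slc3a2.

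The genes whose log2 CPM followed Glul most closely over the 8 libraries were the metallothionein genes Mt2 (r = 0.986) and Mt1 (r = 0.986), which encode zinc-binding proteins, and Arhgdib (r = 0.985), a gene of blood cells for an inhibitor of small GTPases. For Aldh4a1 they were Cox15 (r = 0.996), a heme A synthesis gene, Mmab (r = 0.991), a cobalamin enzyme gene, and Wfs1 (r = 0.985), which encodes a membrane protein of the endoplasmic reticulum. These values hold the difference between groups, which chose Glul and Aldh4a1, and are a description. The log2 fold changes were -2.17, -1.54 and -1.09 for Mt2, Mt1 and Arhgdib and 0.53, 0.58 and 0.69 for Cox15, Mmab and Wfs1.

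Other genes of the same pathways were read from 4 lists that do not contain the 9 genes. Of 121 listed genes, 105 were tested, and 1 was called higher and 1 lower in DKO at an adjusted p of 0.05 in edgeR, against 0.759% and 0.498% of all tested genes. At an unadjusted edgeR p under 0.05 were 27 of the 105, against 15.4% of all tested genes. By list in the order below these were 7 of 20, 3 of 13, 10 of 38 and 7 of 34. Groups did not overlap in 8 genes higher and 7 lower of the 105, against 5.70% and 3.54%. The lists were chosen with earlier results of these data known. The median log2 fold change of the 105 was 0.030, with 54 above and 51 below 0, beside -0.021 over all tested genes. Among glutamine and glutamate enzymes (20 tested of 22), edgeR called none higher and Gclc lower. DESeq2 called 0 higher and 2 lower (3.77% and 2.79% of all tested genes). With limma-voom it was 0 and 1 (0.788% and 0.468%), and with quality weights 0 and 3 (5.90% and 3.88%). Gclc encodes the catalytic subunit of the enzyme that joins glutamate to cysteine in glutathione synthesis. It was at 150.2, 190.2, 176.5 and 178.5 CPM in Control 1 to 4 and at 85.5, 95.5, 115.8 and 113.9 CPM in DKO 1 to 4, with no overlap. It fell, with a log2 fold change of -0.76 ± 0.13 (SE) and an edgeR adjusted p of 0.0288, and was lower in 4 of 4 DKO libraries than in any Control library. The call was lost in 8 of the 22 alternatives, with adjusted p from 4.86e-06 to 0.145. The median log2 fold change over this list was 0.047, with 11 genes above and 9 below 0.

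Among proline, ornithine and arginine enzymes (13 tested of 16), edgeR called 0, with 3 at an unadjusted p under 0.05, against 15.4% of all tested genes. DESeq2 called 1 higher (3.77% of all tested genes were) and 0 lower (2.79%), limma-voom 0 (0.788% higher and 0.468% lower) and limma-voom with quality weights 2 higher (5.90%) and 0 lower (3.88%). The 2 with the smallest adjusted p were Asl, the gene of argininosuccinate lyase, with a log2 fold change of 0.60 ± 0.13 (SE; edgeR adjusted p = 0.0609) and groups that did not overlap, and Pycrl, a gene for a reductase of proline synthesis, at 0.30 ± 0.11 (adjusted p = 0.242). Of Pycr1, Aldh18a1 and Oat, none passed the test in edgeR. Pycr1, which makes proline, was at 0.17 ± 0.25 (adjusted p = 0.802), Aldh18a1, which makes its precursor, at 0.082 ± 0.12 (0.797), and Oat, which links ornithine to the pathway, at 0.11 ± 0.089 (0.627). Prodh, the gene of the first step of proline breakdown, was at most at 0.254 CPM in any library and was not tested. The median log2 fold change over the list was 0.11.

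Among amino acid transporters (38 tested of 49), edgeR called 0, with 10 at an unadjusted p under 0.05 (15.4% of all genes). DESeq2 called 1 higher and 3 lower (3.77% and 2.79% of all genes), limma-voom 0 (0.788% and 0.468%), and limma-voom with quality weights 2 higher and 4 lower (5.90% and 3.88%). Slc7a11, the cystine and glutamate exchanger gene whose protein also pairs with that of Slc3a2, was at 111.0, 164.0, 159.3 and 208.7 CPM in Control 1 to 4 and at 5.74, 17.9, 44.8 and 66.5 CPM in DKO 1 to 4. The groups did not overlap, and DKO 1 was the lowest. The log2 fold change was -2.25 ± 0.65 (SE; edgeR adjusted p = 0.150), and it passed in 3 of 22 alternatives. Slc38a4, a further member of the Slc38 family, was at -0.46 ± 0.13 (adjusted p = 0.131), also without overlap. The median of the list was -0.082, with 16 above and 22 below 0.

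Among amino acid response genes (34 of 34 tested), edgeR called Psph higher and none lower. DESeq2 called 3 higher and 2 lower (3.77% and 2.79% of all genes). With limma-voom it was 1 and 0 (0.788% and 0.468%), and with quality weights 4 and 2 (5.90% and 3.88%). Groups did not overlap in 4 genes higher and 2 lower (5.70% and 3.54% of all genes), and log2 fold changes ran from -1.23 to 0.65. Psph, the phosphatase gene of the last step of serine synthesis, was at 15.8, 13.7, 16.1 and 13.7 CPM in Control 1 to 4 and at 22.3, 21.8, 21.5 and 21.1 CPM in DKO 1 to 4. It rose in 4 of 4 DKO libraries above every Control library, with a log2 fold change of 0.55 ± 0.11 (SE) and an edgeR adjusted p of 0.0465. The call held in 8 of 22 alternatives, with adjusted p from 5.39e-05 to 0.232. Asns, the asparagine synthetase gene, was at 0.24 ± 0.16 (adjusted p = 0.525), and Atf4, the transcription factor gene of the amino acid response, at -0.26 ± 0.21 (0.620). The median of the list was 0.060, with 19 above and 15 below 0.

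**Figure D5:**
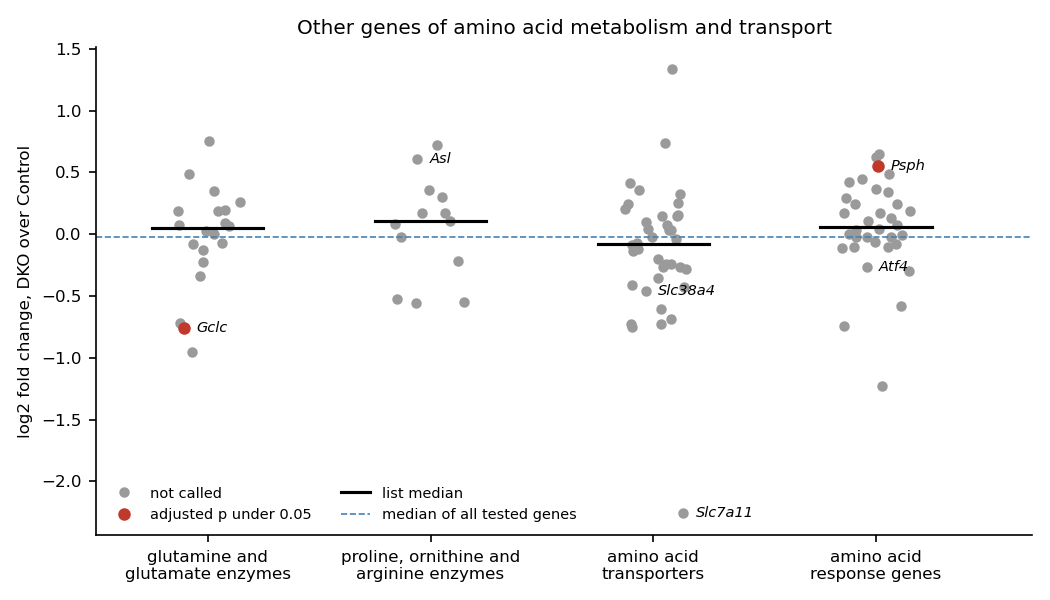
Log2 fold change, DKO over Control (vertical axis), of the tested genes of the 4 lists, with red points at an edgeR adjusted p under 0.05, black bars at list medians and the dashed line at the median of all tested genes (-0.021). Gclc and Psph are the 2 called genes, and Slc7a11 is the lowest point at -2.25.

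The libraries held 33145056 to 39257648 counts, and 16870 genes were tested. Insr was at a log2 fold change of -0.30 ± 0.11 (SE; edgeR adjusted p = 0.226) and Igf1r at -0.14 ± 0.12 (0.639), so neither targeted gene passed the test, and counts over whole genes cannot show a deleted exon. The sum of 9 luteal marker genes ranged from 8684 to 15437 CPM in Control and from 16807 to 22339 in DKO, with 7 of the 9 higher without overlap (5.70% of all tested genes were), 3 called higher (0.759%) and none at 0. The sum of 8 granulosa markers ranged from 2395 to 3269 CPM in Control and from 2834 to 3505 in DKO, and that of 5 smooth muscle markers from 1430 to 2601 and from 1063 to 1935. Endothelial markers (7 genes) summed to 468 to 567 CPM in Control and 477 to 706 in DKO, macrophage markers (6 genes) to 161 to 251.6 and 171 to 211, theca markers (4 genes) to 118 to 179 and 155 to 316. Neutrophil markers summed to 3.84 to 25.02 CPM in Control, highest in Control 3, and to 2.23 to 3.67 in DKO, with 2 of the 6 at 0 in a library. Red cell markers (5 genes) summed to 266 to 584 CPM in Control and 186 to 804 in DKO, surface epithelium markers (5 genes) to 104 to 624 and 128 to 345, highest in Control 1 and DKO 2, and adipocyte markers (5 genes) to 24.7 to 56.3 and 33.5 to 48.3. Genes of the adipocyte list went different ways. Plin1 was higher in DKO without overlap (mean 25.2 against 10.6 CPM in Control) and was called (0.759% of all tested genes were called higher). Lep, at most at 0.645 CPM, was lower without overlap. Of all tested genes, 5.70% were higher and 3.54% lower without overlap. Adipoq, Cidec and Cfd had lower means in DKO, with overlap. The part of luteal, neutrophil or other cells in the differences of the 9 genes was not tested.

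Without Control 1 and DKO 2, the libraries with oviduct markers, the log2 fold change was -1.18 for Glul, -0.69 for Glud1, 1.03 for Aldh4a1, -0.50 for Slc3a2, -0.77 for Gclc and 0.59 for Psph, so each was at least as large. The calls of Gclc and Psph were lost there (edgeR adjusted p = 0.0572 and 0.122). Without DKO 1 and DKO 2, which leaves 2 DKO libraries, it was -0.98 ± 0.23 (SE) for Glul, -0.56 ± 0.21 for Glud1, 1.07 ± 0.13 for Aldh4a1, -0.28 ± 0.20 for Slc3a2, -0.24 ± 0.18 for Slc38a1, -0.084 ± 0.14 for Slc38a2, 0.41 ± 0.24 for Slc38a3, 0.29 ± 0.13 for Slc7a5 and -0.099 ± 0.22 for Slc1a5. Aldh4a1 still passed the adjusted p there and Glul did not, but both were chosen from this comparison and nothing is read from it. The differences of Slc3a2 and Slc38a2 were smaller there and that of Slc7a5 was larger. Gclc was at -0.58 and Psph at 0.54, both without a call (edgeR adjusted p = 0.145 and 0.232), and Slc7a11 was at -1.51 (0.0696). Atf4 turned from -0.26 to 0.034. Within the 5 libraries with the highest title numbers the values were -1.10 for Glul, -0.64 for Glud1, 1.10 for Aldh4a1, -0.39 for Slc3a2, -0.64 for Gclc, 0.57 for Psph and -1.65 for Slc7a11. The sample of libraries in each group is small, and the labels do not say whether each library is 1 mouse, so errors measure the spread between these libraries.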

How the data were processed

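Stranded poly(A) RNA libraries were made from whole ovaries, per the labels' protocols. The authors deposited raw counts per gene, made with featureCounts of Subread 1.5.2 on the reverse strand with the RefSeq annotation of GRCm38.p5, per the file headers. No option for multi-mapping reads was recorded, so genes with near-identical copies are uncertain. The aligner's role is not given in the sources used here. The submitters' processing notes list STAR 2.4.2a among the tools. The sample descriptions gave each library's group and replicate number, and no sample was left out. Symbols came from a RefSeq table of GRCm38.p6 that matched 40290 of 41591 IDs (96.9%), and positions came from the count tables.

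Libraries held 33145056 to 39257648 counts. Pairs within a group differed by a reduced chi-square of 25.1 to 143, more than counting noise gives, and all 8 were counted as replicates. These values do not show that the libraries are independent mice. DKO 1 and DKO 2 were at 34.4 and DKO 3 and DKO 4 at 25.1, while DKO pairs across these sets were at 107 to 143. Counts were tested in R 4.3.3 with edgeR 4.0.16 (filterByExpr, TMM factors of 0.943 to 1.06, robust quasi-likelihood F-test, two-sided, no covariate, Benjamini-Hochberg over 16870 genes, threshold 0.05). The SE is the log2 fold change divided by the square root of F. CPM carry the TMM factors, and log2 CPM used a prior count of 2. DESeq2 1.42.0 and limma 3.58.1 were alternatives, tables were prepared in Python 3.11.15, and the edgeR fit was tested on simulated data.

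The 9 genes and all lists were chosen with earlier results of these data known. Named genes are the 9, up to 6 called genes per list or, with none called, the 2 of smallest adjusted p, 7 genes next to the pathway (1 is not reported here), the 3 genes most like Glul and Aldh4a1 (mean of at least 5 CPM), and the targeted genes. The alternatives were other scalings, filters, tests and blocks, each library left out and, chosen after seeing the data, the fits without Control 1 and DKO 2 and without DKO 1 and DKO 2.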

Additional observations from a re-analysis of the deposited data

Results flagged for a closer look

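Values were examined in 58 groups of 4 libraries (29 genes), and in 5 of them 1 library stood far from the other 3 (Dixon's test of the gap to the nearest library, 95% level). Chance alone gives such a gap in about 1 of 20 groups. Glud1 was at 437.6 CPM in Control 3, with the other Control libraries at 270.8 to 298.6. Asl was at 47.9 CPM in Control 3, against 34.2 to 36.2 in the rest of Control. Aldh18a1 was at 92.9 CPM in Control 1, against 67.4 to 70.3 in the rest of Control. Cox15 was at 53.0 CPM in DKO 3, against 47.4 to 48.3 in the rest of DKO. Igf1r was at 247 CPM in DKO 4, against 199.6 to 204.9 in the rest of DKO.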

How the results depend on the processing

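Glul, Glud1, Aldh4a1, Slc38a1, Slc38a2, Slc38a3 and Slc3a2 kept the direction of their log2 fold change in all 22 alternatives. For Glul, Glud1 and Aldh4a1, whose groups did not overlap, leaving out libraries could hardly have reversed it. The 90 recomputed mean levels of the 9 genes stayed within 1 SD. Leaving out 1 of 4 libraries cannot move a mean by 1 SD, so only the levels scaled by library size could have done so. Slc7a5 reversed without DKO 3 (-0.062) and reached 0.17 with another library left out. Slc1a5 reversed with the block for runs of title numbers (-0.048) and in the 5 libraries with the highest title numbers alone (-0.031). In that block Control 1 stood alone and DKO 1 and DKO 2 stood together, so its group difference came from the same 5 libraries. Slc1a5 also reversed without Control 2 (-0.032), Control 4 (-0.098) or DKO 2 (-0.074), and reached 0.15 with another left out. Pycr1 reversed with quality weights (-0.10), that block (-0.22) and those 5 libraries alone (-0.20), and Igf1r in those 5 libraries alone (0.014). Without DKO 1 and DKO 2, Slc1a5 (-0.099), Pycr1 (-0.22) and Atf4 (0.034) reversed. The within-group r of Slc3a2 and Slc7a5, 0.55 over 8 libraries, was -0.19 in those 5 libraries. The cause was not tested in any of these.

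Of all tested genes, 128 were called higher and 84 lower (0.759% and 0.498%). DESeq2 called 636 and 471 (3.77% and 2.79%), limma-voom with quality weights 996 and 655 (5.90% and 3.88%), the block for title numbers 72 and 39 (0.427% and 0.231%), and the fit without both libraries with oviduct markers 49 and 48 (0.291% and 0.285%). Without DKO 1 and DKO 2 it was 53 and 11 (0.303% and 0.0629%). With no filter 0.311% were called lower, as more genes were tested. Leaving out 1 library gave 0.00583% to 1.98% higher and 0.00583% to 0.975% lower, lowest without Control 2 and highest without Control 3, with the lower calls also down to 0.00583% without DKO 3. Of the 105 listed pathway genes, 1 was called higher and 1 lower (0.952% each). The higher share was 4.76% with DESeq2, 7.62% with quality weights, and 0% with upper quartile factors, library size only, the block for title numbers, the 5 libraries with the highest title numbers, both oviduct-marker libraries left out or DKO 1 and DKO 2 left out. The lower share was 6.67%, 8.57% and, without either pair of libraries, 0%. Leaving out 1 library gave 0% to 2.83% higher and 0% to 1.90% lower. The cause was not tested for the other changes.

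With the replicate number as a block, 361 genes were called higher and 382 lower (2.14% and 2.26%), and 4 and 3 of the pathway genes (3.81% and 2.86%). Same-numbered libraries deviated with r of 0.16, -0.36, 0.31 and 0.47 over genes, 1 of them negative, so the numbers were not taken to pair the samples, and the labels do not settle it. Control 3 and Control 4 were closest to the DKO library of their own number, Control 1 to DKO 2 (0.64) and Control 2 to DKO 3 (0.26). Among the 9 genes Glul, Glud1 and Aldh4a1 passed with the block, and nothing is read from this, as the genes were chosen from the same comparison.

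With 4 libraries a group, SEs of log2 fold changes were 0.10 to 0.18 for the 9 genes, so small differences, such as those of Slc7a5 and Slc1a5, were not detectable. Counts were at least 1026 per library, and counting error was small beside the spread between libraries for the genes other than Aldh4a1. For Aldh4a1 in Control, with 1026 to 1339 counts and a coefficient of variation of 5.71%, it was a sizeable part of the spread.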
